A study of Homo sapiens with 18 samples.

Results

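Of the 60595 genes listed in the deposited tables, 10 that encode actin-binding and contractile proteins are described here: TAGLN, TAGLN2, ACTA2, TPM1, TPM2, MYL9, CNN1, CNN2, CALD1 and LCP1. They were found by gene symbol, and each has a row in all 4 tables. The set was put together with results of these data in view, since TAGLN and TPM1 were higher under drug in the R line and LCP1 separated the lines. Values from those contrasts (drug in R, R against P, and the difference between both drug responses) are therefore descriptions without a test. The drug comparison in P and both LSD1 hairpin comparisons are tested.

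RNA was sequenced from A375, a human melanoma cell line with an activating BRAF mutation, in 18 libraries that form 9 groups of 2. The letter P is taken to mean parental cells and R cells with resistance to BRAF and MEK inhibitors, from the sample names and the series title. R_DT and P_DT received 250 nM dabrafenib, a BRAF inhibitor, with 10 nM trametinib, a MEK inhibitor. R_DMSO and P_DMSO received the vehicle DMSO, and these 4 groups are labelled wild type and share a table. R_shFosL1 carried a hairpin against FOSL1, a subunit of the transcription factor AP-1. R_shLSD1 and P_shLSD1 carried a hairpin against LSD1, the histone demethylase encoded by KDM1A, and R_shCtrl and P_shCtrl a control hairpin, with no drug named for these 5 groups. The labels give neither the length of treatment nor how R was derived. Nor do they say whether the 2 replicates came from different cultures, and a p-value may thus reflect technical spread. Levels are FPKM (fragments per kilobase of transcript, scaled to the mapped fragments of a library). Differences are on the log2(FPKM + 1) scale, which understates those of low genes.

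Contractile cells pull by sliding myosin II along actin filaments bundled into stress fibres. ACTA2 is smooth muscle alpha-actin, and MYL9 is a regulatory light chain whose phosphorylation activates myosin II. The tropomyosins TPM1 and TPM2 lie along the filament and govern which proteins reach it, while caldesmon (CALD1) and the calponins (CNN1, CNN2) bind actin and restrain myosin. Transgelin (TAGLN, also called SM22) and TAGLN2 share a calponin-homology domain and bind filaments. LCP1, or L-plastin, cross-links filaments into bundles and is best known from leukocytes. Several of these genes are textbook targets of serum response factor (SRF), which binds the CArG box together with myocardin (MYOCD) or the MRTF cofactors.

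On hg38, TAGLN lies on chromosome 11 from 117199321 to 117204782, TPM1 on chromosome 15 from 63042632 to 63071915 and CALD1 on chromosome 7 from 134744252 to 134970728, all on the plus strand. LCP1 lies on chromosome 13 from 46125920 to 46211871 on the minus strand, and all 10 genes are protein-coding in GENCODE 29. RefSeq promoters (GRCh38.p14, 250 bases before to 50 after a start) were matched by symbol for 8 of the 10, 15 promoters in all, and not for TAGLN and MYL9. They were searched on both strands for the CArG box as CCWWWWWWGG, where W is A or T. The same search covered the AP-1 letters TGACTCA or TGAGTCA and the TEAD letters GGAATG or CATTCC. The second form of each pair is the reverse complement of the first, and no match overlapped a match of another motif. For each gene with a match, 1 stretch of the 250 bases before a start is shown so that the letters can be seen in place, 5′ to 3′ on the gene's strand, with the match in capitals.
CNN2 promoter, chr19:1026358-1026607, plus strand, CArG box: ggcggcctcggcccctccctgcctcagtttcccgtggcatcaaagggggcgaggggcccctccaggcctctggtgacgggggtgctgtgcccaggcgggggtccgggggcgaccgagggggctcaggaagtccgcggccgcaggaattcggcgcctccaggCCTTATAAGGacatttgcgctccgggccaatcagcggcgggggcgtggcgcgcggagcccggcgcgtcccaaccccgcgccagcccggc
TAGLN2 promoter 2, chr1:159924596-159924845, minus strand, AP-1: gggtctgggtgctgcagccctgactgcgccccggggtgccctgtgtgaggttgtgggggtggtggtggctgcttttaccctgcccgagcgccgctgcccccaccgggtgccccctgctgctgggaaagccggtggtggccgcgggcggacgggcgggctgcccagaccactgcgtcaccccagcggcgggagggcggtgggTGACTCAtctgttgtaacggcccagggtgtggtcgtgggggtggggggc
ACTA2 promoter 1, chr10:88952774-88953023, minus strand, TEAD: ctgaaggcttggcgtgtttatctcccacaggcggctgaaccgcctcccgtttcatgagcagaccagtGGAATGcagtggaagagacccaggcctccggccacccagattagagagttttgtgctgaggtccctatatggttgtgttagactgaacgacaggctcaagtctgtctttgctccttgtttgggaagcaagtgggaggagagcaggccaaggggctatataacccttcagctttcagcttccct
CALD1 promoter 3, chr7:134779384-134779633, plus strand, TEAD: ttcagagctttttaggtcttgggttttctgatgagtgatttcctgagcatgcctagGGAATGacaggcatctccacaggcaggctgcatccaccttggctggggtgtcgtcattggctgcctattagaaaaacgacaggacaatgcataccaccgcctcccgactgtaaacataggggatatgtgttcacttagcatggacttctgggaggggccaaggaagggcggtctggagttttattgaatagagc
A CArG box with these exact letters stood in 1 of the 15 promoters, in CNN2 from base -89 to base -80 counted from the start. Of 35116 promoters searched the same way, 1.29% held it. Forms that depart from the letters by a base, such as ccctatatgg and ccttgtttgg in ACTA2 promoter 1, were not counted. The AP-1 letters stood in 2 promoters, both of TAGLN2, against 4.95% of all promoters. The TEAD letters stood in 3 promoters, of ACTA2 and CALD1, against 14% of all. A match describes letters in the window, and no binding was measured.

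The 18 libraries summed to 556410 to 814364 FPKM, and steps of whole fragments, clear in 10 of them, put those at 8.1 to 10.9 M fragments if a fragment has 250 bases. The P_DMSO replicates lay further apart than those of the other groups, with an SD of their log2 difference over genes of 0.71 against 0.40 to 0.49. KDM1A was at 10.1 and 11.1 FPKM in R_shLSD1 against 73.3 and 76.5 FPKM in R_shCtrl, and at 9.54 and 6.73 FPKM in P_shLSD1 against 78.1 and 72.4 FPKM in P_shCtrl. FOSL1 was at 36.2 and 38.3 FPKM in R_shFosL1. SOX10, a transcription factor that defines melanocytic cells, was listed at 0 in 9 of the 10 R libraries and at 89.1 to 332.9 FPKM in the 8 P libraries.

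Under dabrafenib plus trametinib, R cells held far more RNA of TAGLN, ACTA2, MYL9, TPM1 and CNN1. The relatives TAGLN2, TPM2 and CNN2 stood closer to vehicle. TAGLN was at 497 and 524 FPKM in R_DT libraries, against 8.74 and 6.20 FPKM in R_DMSO, a difference of 5.93. ACTA2 was at 64.8 and 65.9 FPKM in R_DT libraries, against 6.85 and 6.06 FPKM in R_DMSO, a difference of 3.16. In both genes the R_DT libraries lay close together and far above the R_DMSO libraries. MYL9 was at 112.2 and 112.0 FPKM in R_DT libraries, against 16.1 and 14.2 FPKM in R_DMSO, a difference of 2.81. TPM1 was at 452 and 451 FPKM in R_DT libraries, against 74.4 and 83.0 FPKM in R_DMSO, a difference of 2.51. CNN1, the calponin of differentiated smooth muscle, was at 6.42 and 6.94 FPKM in R_DT libraries, against 0.469 and 0.543 FPKM in R_DMSO, a difference of 2.35. It passed the filter of 1 FPKM in at least 2 libraries of this table through R_DT alone.

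CALD1 was at 75.7 and 71.1 FPKM in R_DT libraries, against 27.69 and 27.66 FPKM in R_DMSO, a difference of 1.37. LCP1 was at 244 and 239 FPKM in R_DT libraries, against 124 and 117 FPKM in R_DMSO, a difference of 1.00. Of the others, TPM2 differed by 0.76, CNN2 by 0.55 and TAGLN2 by 0.23, and their libraries did not overlap either. A fold rule (a log2 difference of 1 or more and no overlap of the libraries) counted 7 of the 10 as higher in R_DT and 0 as lower, where 4.86% of 17190 genes were higher and 3.69% lower. LCP1 stood just inside that rule and TPM2 just outside it. The set was chosen on this contrast, so nothing is read from the count. In bulk libraries, fewer or more cells of a kind and less or more RNA per cell cannot be told apart.

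**Figure D1:**
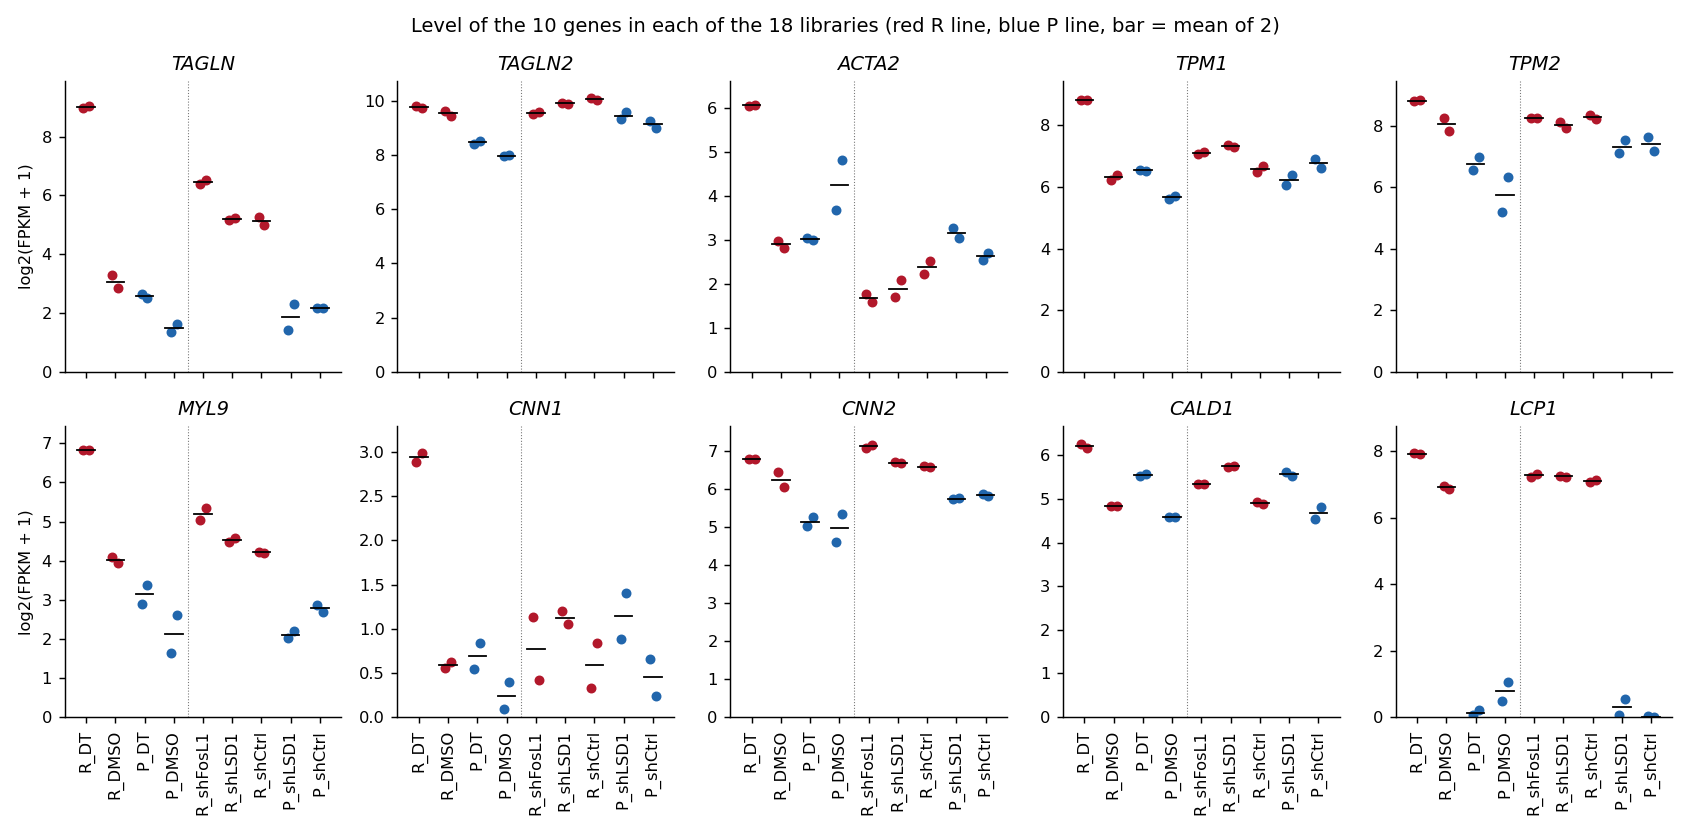
Level of each of the 10 genes as log2(FPKM + 1) in every library of the 9 groups, red for R and blue for P, with a bar at the mean of 2 libraries and a dotted line between the drug table and the hairpin tables. TAGLN, ACTA2, MYL9, TPM1 and CNN1 stand highest in R_DT, and LCP1 lies near 0 in each P group.

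Marker sums of several cell types differed in this contrast, not all in the same direction. Of 6 smooth muscle markers, 5 averaged 1 FPKM or more in R_DT and 2 in R_DMSO, and their levels summed to 54.3 and 52.3 FPKM in R_DT libraries, against 41.8 and 40.8 FPKM in R_DMSO. The sum joins opposite differences. SMTN, or smoothelin, was at 19.3 and 21.4 FPKM in R_DT libraries, against 38.3 and 38.8 FPKM in R_DMSO, while MYOCD was at 24.9 and 22.3 FPKM in R_DT libraries, against 0.367 and 0.304 FPKM in R_DMSO. MYH11, the smooth muscle myosin heavy chain, was at 0.103 and 0.0766 FPKM in R_DT libraries, against 0.315 and 0.346 FPKM in R_DMSO. LMOD1, a smooth muscle leiomodin, was at 3.96 and 3.90 FPKM in R_DT libraries, against 0.569 and 0.393 FPKM in R_DMSO. The 7 fibroblast markers summed to 57.5 and 59.1 FPKM in R_DT libraries, against 29.4 and 26.1 FPKM in R_DMSO. The 7 keratinocyte markers summed to 404 and 415 FPKM in R_DT libraries, against 37.2 and 63.6 FPKM in R_DMSO, most of it KRT17 at 376 and 378 FPKM in R_DT, while KRT14, KRT1 and TP63 were at 0 in both groups. The 7 melanocytic markers summed to 35.3 and 57.9 FPKM in R_DT libraries, against 27.0 and 24.9 FPKM in R_DMSO. The 9 leukocyte markers had the lower sum under drug, 6.63 and 6.37 FPKM in R_DT libraries, against 14.7 and 11.4 FPKM in R_DMSO. LCP1 was higher in R_DT. The part of such markers in the difference was not tested.

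In P cells the same drugs raised TAGLN, TAGLN2, TPM1 and CALD1 and lowered ACTA2. Of the 10 members, all of which passed the filter in the fit of the 8 drug libraries, 4 rose and 1 fell at limma's adjusted p below 0.05, where 12.8% of 17190 genes rose and 9.67% fell. The median difference of the 10 was 0.69, against 0.11 over all genes tested. CALD1 was at 45.0 and 46.3 FPKM in P_DT libraries, against 23.1 and 22.9 FPKM in P_DMSO, a rise of 0.96 ± 0.12 (SE, n = 2 per group, limma adjusted p = 0.0026). TPM1 was at 93.0 and 91.1 FPKM in P_DT libraries, against 47.6 and 51.5 FPKM in P_DMSO, a rise of 0.88 ± 0.12 (limma adjusted p = 0.0037). In both genes each treated library lay above each vehicle library, and both kept their call in each alternative tried.

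TAGLN was at 5.31 and 4.71 FPKM in P_DT libraries, against 1.56 and 2.09 FPKM in P_DMSO, a rise of 1.09 ± 0.19 (limma adjusted p = 0.010). TAGLN2 was at 342 and 370 FPKM in P_DT libraries, against 247 and 253 FPKM in P_DMSO, a rise of 0.50 ± 0.13 (limma adjusted p = 0.032). ACTA2 was at 7.25 and 6.98 FPKM in P_DT libraries, against 11.8 and 26.9 FPKM in P_DMSO, a fall of -1.22 ± 0.33 (limma adjusted p = 0.041). The libraries were apart in all 3 genes, but the P_DMSO replicates of ACTA2 stood far from each other. Without P_DT replicate 1 or without P_DT replicate 2, each of which leaves 1 library in that group, these 3 calls were lost and 2 members remained called. TPM2 (1.01 ± 0.37), MYL9 (1.02 ± 0.33), CNN1 (0.44 ± 0.23), CNN2 (0.16 ± 0.26) and LCP1 (-0.64 ± 0.20) did not pass. Without P_DMSO replicate 2, TPM2 (limma adjusted p = 0.0042) and MYL9 (limma adjusted p = 0.0042) passed too, 7 members in all.

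Marker sums differed in this contrast as well. The 7 fibroblast markers summed to 15.5 and 16.7 FPKM in P_DT libraries, against 4.29 and 4.05 FPKM in P_DMSO, with LUM (lumican, a matrix proteoglycan) at 6.04 and 6.37 FPKM in P_DT libraries, against 0.0845 and 0.0728 FPKM in P_DMSO. The 7 melanocytic markers summed to 354 and 381 FPKM in P_DT libraries, against 148 and 191 FPKM in P_DMSO. Only 3 of the 7 averaged 1 FPKM or more in each of these groups, and TYR was at 0. Over the 8 P libraries this sum was 103.6 to 381.1 FPKM, where SOX10 alone was at 89.1 to 332.9 FPKM. The 6 smooth muscle markers summed to 17.4 and 17 FPKM in P_DT libraries, against 22.7 and 24.1 FPKM in P_DMSO. The 9 leukocyte markers summed to 2.53 and 4.97 FPKM in P_DT libraries, against 1.51 and 2.35 FPKM in P_DMSO. The keratinocyte sums overlapped. The part of these markers in the members' differences was not tested.

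**Figure D2:**
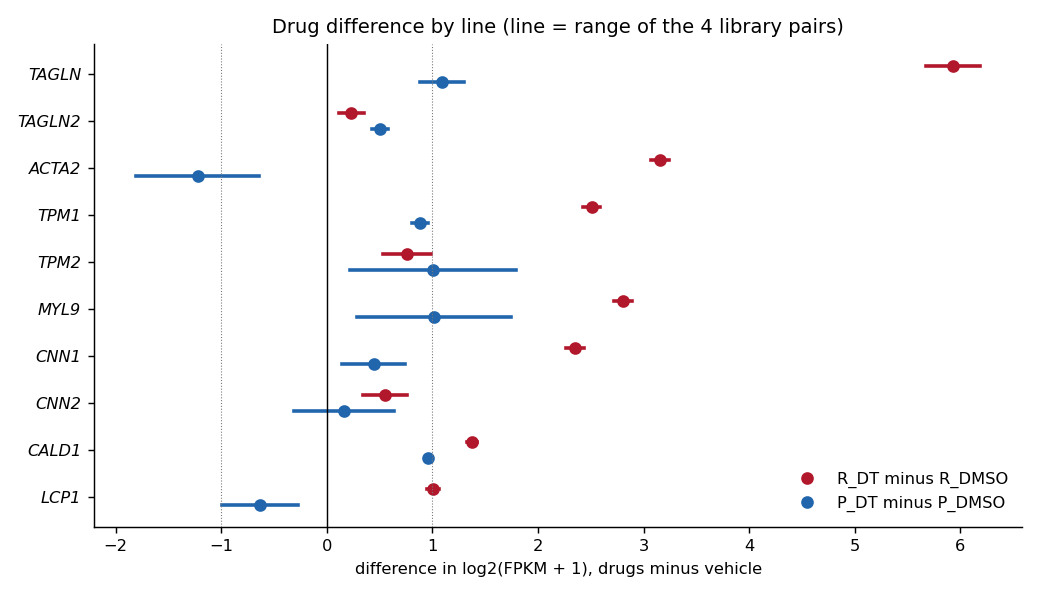
Drug minus vehicle difference in log2(FPKM + 1) of each gene, R in red and P in blue, with a point at the mean and a line over the range of the 4 library pairs. TAGLN differs by 5.93 in R and 1.09 in P, and ACTA2 by 3.16 in R and -1.22 in P.

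Set side by side, the drug difference in R exceeded that in P by 1 or more, with the library ranges apart, in 6 members: TAGLN (4.84), ACTA2 (4.38), CNN1 (1.91), MYL9 (1.79), LCP1 (1.64) and TPM1 (1.63). Over all genes, 9.52% stood past the same rule in that direction, and the count is a description, since the term holds the contrast the set was chosen from. For CALD1 the drug difference was 1.37 in R and 0.96 in P, and for TPM2 0.76 in R and 1.01 in P. TAGLN2 had the smallest drug difference of the set in R, at 0.23, and 0.50 in P.

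LCP1 had the widest gap between the lines. It was at 244 and 239 FPKM in R_DT and 124 and 117 FPKM in R_DMSO, against 0.0372 and 0.169 FPKM in P_DT and 0.414 and 1.07 FPKM in P_DMSO. In the hairpin tables it was at 148 and 160 FPKM in R_shFosL1, 152 and 149 FPKM in R_shLSD1 and 135 and 141 FPKM in R_shCtrl, against 0.0521 and 0.457 FPKM in P_shLSD1 and 0.0271 and 0 FPKM in P_shCtrl. No library of either line came near the range of the other. Across the tables, which were normalized separately, the R libraries also lay above the P libraries in TAGLN, MYL9, TPM2 and CNN2, but closely: the lowest R library of TAGLN was at 6.20 FPKM, against 5.31 FPKM in the highest P library. Of 9 leukocyte markers, PTPRC, CD53, SPI1, TYROBP, CD3E and MS4A1 were listed at 0 in both R_DT libraries. Of these, PTPRC, CD53 and SPI1 were above 0 in at least 1 P_DT library. Under vehicle, PTPRC was at 0 in both R libraries and not in both P libraries, and CD53 was the other way round. LAPTM5, a lysosomal membrane protein of blood cells, was higher in R throughout the drug table, at 1.59 and 1.997 FPKM in R_DT and 1.89 and 2.88 FPKM in R_DMSO, against 0 and 0 FPKM in P_DT and 0.184 and 0.330 FPKM in P_DMSO. CD53 was at 0.811 and 0.816 FPKM in R_shLSD1, against 0.401 and 0.297 FPKM in R_shCtrl, and at 0 in both P hairpin groups. The summed level of the 9 was 6.37 to 19.3 FPKM over the 10 R libraries and 1.51 to 15.8 FPKM over the 8 P libraries, and CORO1A, an actin-binding coronin, gave 12.7 and 8.42 FPKM of it in R_DMSO. The part of these genes in the level of LCP1 was not tested.

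Under vehicle, 6 members were higher and 1 lower in R than in P by the same fold rule, where 11.6% of genes were higher and 8.7% lower. The higher ones besides LCP1 (6.14) were TPM2 (2.30), MYL9 (1.88), TAGLN (1.57), TAGLN2 (1.57) and CNN2 (1.27), and ACTA2 was the lower one (-1.35). TPM2 was at 308 and 228 FPKM in R_DMSO, against 35.4 and 79.6 FPKM in P_DMSO. CNN2 was at 86.6 and 65.0 FPKM in R_DMSO, against 23.4 and 39.8 FPKM in P_DMSO. These 2 relatives of TPM1 and CNN1 thus stood apart between the lines without drug, and TPM1 itself differed by 0.66. Without P_DMSO replicate 2, no member was lower. Under drug, 9 of the 10 were higher in R_DT than in P_DT, CALD1 (0.67) being the exception, where 12.8% of genes were higher. The 10 genes together made up 0.390% and 0.373% of all FPKM in R_DT and 0.205% and 0.185% in R_DMSO, against 0.112% and 0.114% in P_DT and 0.0695% and 0.0680% in P_DMSO.

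The balance within pairs of relatives differed between groups. TAGLN stood at 55.7% and 60.9% of the level of TAGLN2 in R_DT, against 1.10% and 0.888% in R_DMSO. In P it stood at 1.55% and 1.27% in P_DT, against 0.630% and 0.826% in P_DMSO. TPM1 stood at 101% and 99.6% of TPM2 in R_DT, against 24.1% and 36.4% in R_DMSO. In P the replicates spread widely, with 100.1% and 72.7% in P_DT and 134% and 64.7% in P_DMSO, and the groups overlapped.

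**Figure D3:**
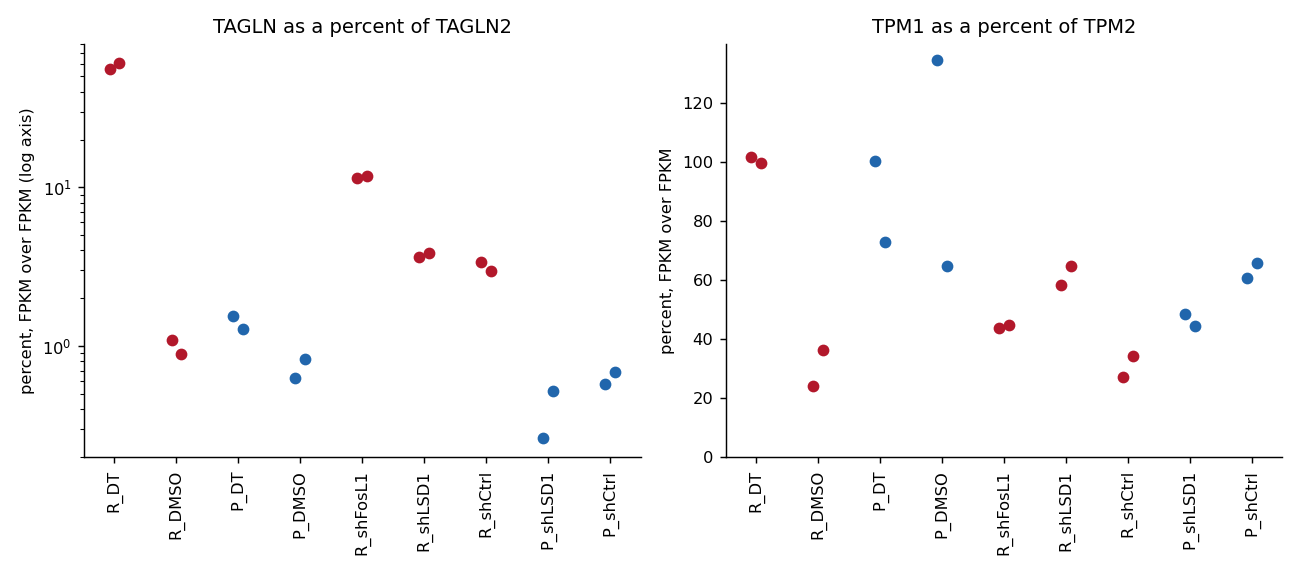
FPKM of TAGLN as a percent of TAGLN2 (left, log axis) and of TPM1 as a percent of TPM2 (right, linear axis) in every library, red for R and blue for P. TAGLN reaches 55.7% and 60.9% in R_DT, and TPM1 reaches the level of TPM2 there.

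The hairpin against LSD1 raised TPM1 and CALD1 in R cells and left the other members short of the threshold. Of the 10 members, 2 rose and 0 fell in R_shLSD1 at limma's adjusted p below 0.05, where 9.42% of 14293 genes rose and 12.4% fell. The count of 2 in 10 is near the share of all genes called, 21.8% in either direction. At an unadjusted p below 0.05, 5 of the 10 differed, a threshold that at least the same 21.8% of all genes met. Nothing is read from that count. CALD1 was at 52.4 and 53.0 FPKM in R_shLSD1, against 29.4 and 28.5 FPKM in R_shCtrl, a rise of 0.84 ± 0.08 (limma adjusted p = 0.0041). TPM1 was at 163 and 157 FPKM in R_shLSD1, against 89.3 and 102 FPKM in R_shCtrl, a rise of 0.74 ± 0.08 (limma adjusted p = 0.0051). Both kept their call in each alternative tried. TAGLN was at 35.2 and 36.6 FPKM in R_shLSD1, against 37.2 and 31.1 FPKM in R_shCtrl, and the groups overlapped (0.07 ± 0.11, limma adjusted p = 0.68). TAGLN2 (-0.17 ± 0.05) and MYL9 (0.32 ± 0.11) had libraries apart but did not pass, with limma adjusted p of 0.052 and 0.091. TPM2 (-0.26 ± 0.09), ACTA2 (-0.48 ± 0.24), CNN1 (0.54 ± 0.31), CNN2 (0.11 ± 0.06) and LCP1 (0.13 ± 0.06) did not pass. CNN1 passed the filter in this table through R_shLSD1 alone.

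In P cells, 8 members passed the filter in the hairpin table, and CNN1 and LCP1 did not. None of the 8 was called by limma, where 3.42% of 14729 genes were, and 4 of the 8 stood at an unadjusted p below 0.05. The share of all genes at the unadjusted threshold is not given, so nothing is read from those 4. CALD1 was at 47.8 and 45.0 FPKM in P_shLSD1, against 22.4 and 27.3 FPKM in P_shCtrl, a difference of 0.88 ± 0.16 with a limma adjusted p of 0.054. Without P_shCtrl replicate 2 it passed (1.02, limma adjusted p = 0.025). TPM1 was at 66.2 and 83.0 FPKM in P_shLSD1, against 120 and 95.9 FPKM in P_shCtrl (-0.53 ± 0.20, limma adjusted p = 0.19). The libraries of both genes were apart, CALD1 above and TPM1 below its control. MYL9 (-0.67 ± 0.22), ACTA2 (0.53 ± 0.21), TAGLN2 (0.33 ± 0.23), TAGLN (-0.31 ± 0.34), CNN2 (-0.090 ± 0.14) and TPM2 (-0.088 ± 0.25) did not pass either. The difference between the lines was not tested, since each hairpin table was normalized separately. The fibroblast markers summed to 50.2 and 59.4 FPKM in P_shLSD1, against 10.3 and 8.81 FPKM in P_shCtrl, and the melanocytic markers to 198 and 211 FPKM in P_shLSD1, against 110 and 104 FPKM in P_shCtrl. Of the 7 melanocytic markers, 3 averaged 1 FPKM or more in P_shLSD1 and 2 in P_shCtrl. SOX10 alone was at 89.1 FPKM or more in each P library. In R the melanocytic markers summed to 41.1 and 37.9 FPKM in R_shLSD1, against 28.2 and 24.1 FPKM in R_shCtrl, and the fibroblast sums overlapped. The part of these markers was not tested.

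**Figure D4:**
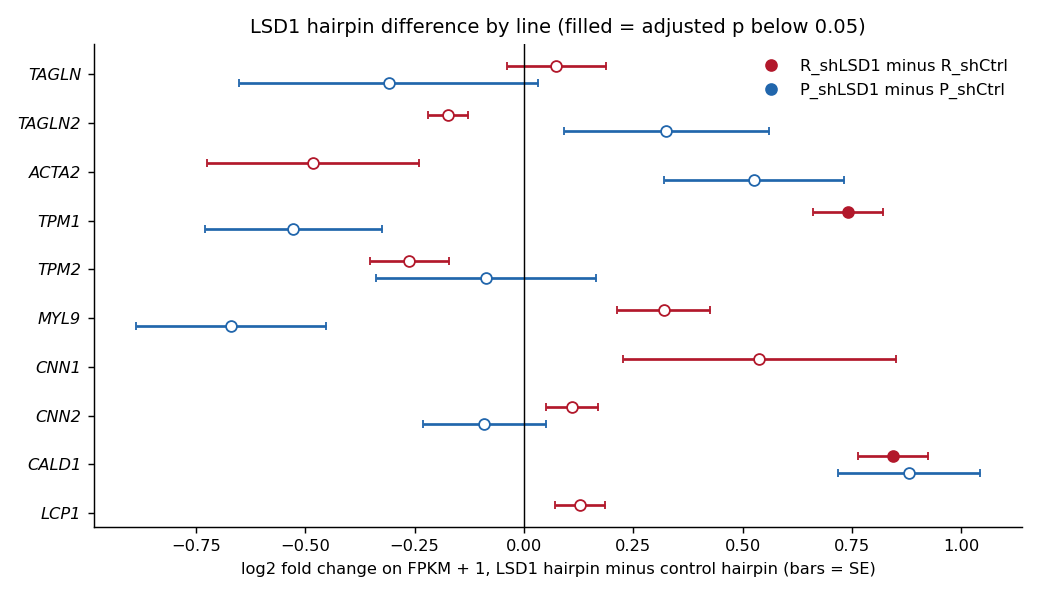
LSD1 hairpin minus control hairpin, as log2 fold change on FPKM + 1 with its SE, for R in red and P in blue; filled points passed limma's adjusted p of 0.05. TPM1 and CALD1 pass in R, and CNN1 and LCP1 have no P point because they missed the filter there.

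R_shFosL1 sits in a table without a control group, so its levels are given beside R_shCtrl of another table as values and no difference is drawn. TAGLN was at 83.2 and 91.8 FPKM in R_shFosL1 and at 37.2 and 31.1 FPKM in R_shCtrl. MYL9 was at 32.2 and 40.0 FPKM in R_shFosL1 and at 17.8 and 17.4 FPKM in R_shCtrl. TPM1 was at 132 and 138 FPKM in R_shFosL1 and at 89.3 and 102 FPKM in R_shCtrl. These 3 genes had the higher values in R_shFosL1, as did CNN2, CALD1 and LCP1 below. TAGLN2 was at 728 and 774 FPKM in R_shFosL1 and at 1105 and 1051 FPKM in R_shCtrl. ACTA2 was at 2.40 and 2.02 FPKM in R_shFosL1 and at 3.68 and 4.71 FPKM in R_shCtrl. The last 2 had the lower values there. CNN2 was at 134 and 142 FPKM in R_shFosL1 and at 95.7 and 94.0 FPKM in R_shCtrl. CALD1 was at 39.8 and 39.7 FPKM in R_shFosL1 and at 29.4 and 28.5 FPKM in R_shCtrl. LCP1 was at 148 and 160 FPKM in R_shFosL1 and at 135 and 141 FPKM in R_shCtrl. The libraries overlapped in TPM2 (302 and 309 FPKM in R_shFosL1, 330 and 297 FPKM in R_shCtrl). They also overlapped in CNN1 (1.19 and 0.333 FPKM in R_shFosL1, 0.2595 and 0.793 FPKM in R_shCtrl). The 2 tables were normalized separately, and the share of all genes with libraries apart between these groups is not given. Nothing is therefore read from which members stood higher or lower.

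Ordered over all 9 groups, with the caution that the 4 tables were normalized separately, 8 of the 10 members were highest in R_DT, TAGLN2 in R_shCtrl and CNN2 in R_shFosL1, and 7 were lowest in P_DMSO. Of the 80 neighbouring pairs in these orders, the libraries overlapped in 28. The set was chosen on the drug contrast in R and on the gap between the lines. No share of all genes is given for these counts, so nothing is read from them. For TAGLN the order of mean FPKM was R_DT (511), R_shFosL1 (87.5), R_shLSD1 (35.9), R_shCtrl (34.1), R_DMSO (7.47), P_DT (5.01), P_shCtrl (3.52), P_shLSD1 (2.82) and P_DMSO (1.83). Its neighbours R_shLSD1 and R_shCtrl overlapped, as did P_shLSD1 with P_shCtrl and with P_DMSO. The labels describe 2 library and sequencing protocols without saying which samples had which, so a difference between tables and one between protocols cannot be told apart. The R cells with the control hairpin had more TAGLN than the R cells with vehicle in the other table. Of the members that reached 1 FPKM in all 18 libraries, TAGLN had the largest ratio of its highest to its lowest library, 337 (1.56 to 524 FPKM), and TAGLN2 had a ratio of 4.47 (247 to 1105 FPKM). CNN1 reached 1 FPKM in 6 of the 18 libraries and LCP1 in 11.

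Reads of overlapping genes may enter these values, since the sources used here do not say whether strand was used in counting. ACTA2 overlaps FAS, a death receptor gene, and STAMBPL1 on the other strand. STAMBPL1 was at 10.1 and 9.81 FPKM in R_DT libraries, against 22.3 and 21.3 FPKM in R_DMSO, and at 4.56 and 5.70 FPKM in P_DT libraries, against 16.4 and 15.9 FPKM in P_DMSO. FAS was at 19.3 and 17.4 FPKM in R_DT libraries, against 18.9 and 15.6 FPKM in R_DMSO, and at 2.2 and 4.05 FPKM in P_DT libraries, against 11.3 and 10.1 FPKM in P_DMSO. In P, STAMBPL1 and FAS were thus lower under drug, as ACTA2 was, and in R neither had the difference of ACTA2. Another partner, the antisense ACTA2-AS1, was at 0.991 and 0.683 FPKM in R_DT libraries, against 0.285 and 0.285 FPKM in R_DMSO. In P it was at 0.0595 and 0.192 FPKM in P_DT libraries, against 0.889 and 0.43 FPKM in P_DMSO. At these low levels, ACTA2-AS1 differed in the same direction as ACTA2 in both lines. CNN2 overlaps the transcript AC011558.1, at 146 and 211 FPKM in R_DT libraries, against 143 and 94.3 FPKM in R_DMSO. In P this transcript was at 49.3 and 51.5 FPKM in P_DT libraries, against 12.9 and 49.8 FPKM in P_DMSO. AC011558.1 was thus higher in R than in P under drug and under vehicle, as CNN2 was. CNN2 also has 11 named copies elsewhere, none above 0.589 FPKM, so the level of CNN2 is uncertain. TPM1 overlaps AC079328.2, at 22.2 and 17.5 FPKM in R_DT libraries, against 7.11 and 12.8 FPKM in R_DMSO. In P, AC079328.2 was at 4.08 and 4.7 FPKM in P_DT libraries, against 2.11 and 3.42 FPKM in P_DMSO. It was thus higher under drug in both lines, as TPM1 was. TAGLN overlaps PCSK7, a proprotein convertase gene, at 30.6 and 33.4 FPKM in R_DT libraries, against 15.5 and 13 FPKM in R_DMSO, and at 28.1 and 23.8 FPKM in P_DT libraries, against 11.9 and 16.7 FPKM in P_DMSO. PCSK7 was thus higher under drug in both lines, as TAGLN was. The part of these partners in the members' values was not tested.

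The counts in the related lists are to be read beside the shares of all genes. By the fold rule, 4.86% were higher and 3.69% lower in R_DT. By limma, 12.8% rose and 9.67% fell in P_DT, and 9.42% rose and 12.4% fell in R_shLSD1. In P_shLSD1, 3.42% were called in either direction. No such share is given for counts at an unadjusted p. Among related genes, the list of 7 for SRF and its cofactors held 1 gene past the fold rule in R_DT against R_DMSO. It was MYOCD (4.20), the cofactor that drives smooth muscle genes. MYOCD was at 24.9 and 22.3 FPKM in R_DT libraries, against 0.367 and 0.304 FPKM in R_DMSO, and listed at 0 in P_DT and P_DMSO. MYOCD passed the filter through R_DT alone, so that it had to differ there. SRF itself was at 19.7 and 20.4 FPKM in R_DT libraries, against 13.7 and 14.1 FPKM in R_DMSO. MYOCD stood below 1 FPKM in each of the hairpin groups, R_shFosL1 (0.183 and 0.241 FPKM) included. In P_DT against P_DMSO, 0 of the 7 rose and 1 fell, the ETS factor ELK3 (-0.91 ± 0.13, limma adjusted p = 0.0045), and 1 stood at an unadjusted p below 0.05. ELK3 was also the 1 of 6 that rose in R_shLSD1 (0.36 ± 0.09, limma adjusted p = 0.041), and in P_shLSD1 limma called 0 of 6, with 1 at an unadjusted p below 0.05.

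Of 29 stress fibre and contraction genes, 28 passed the filter of the drug table. In R_DT, 10 of them stood above R_DMSO by the fold rule and 0 below, with a median difference of 0.60 against -0.03 over all genes. LMOD1, 1 of these 10, passed the filter through R_DT alone. The 3 largest were RHOB, a small GTPase of actin dynamics (2.32), the Z-disc adaptor PDLIM5 (1.95) and the LIM protein CSRP1 (1.92). In P_DT against P_DMSO, 5 rose and 4 fell, with a fall of the actin cross-linker ACTN1 (-1.42 ± 0.13, limma adjusted p = 0.00084). The intermediate filament protein SYNM (1.75 ± 0.16, limma adjusted p = 0.00084) and RHOB (1.04 ± 0.14, 0.0036) rose. In R_shLSD1 against R_shCtrl, 4 of 26 rose and 10 fell. VCL, the focal adhesion protein vinculin (-1.19 ± 0.07, limma adjusted p = 0.0017), and CSRP1 (-0.50 ± 0.06, 0.0055) fell, while RHOB (1.41 ± 0.06, 0.0011) and the filamin FLNC (0.81 ± 0.07, 0.0034) rose. In P_shLSD1 against P_shCtrl, RHOB alone of 24 rose (1.54 ± 0.17, limma adjusted p = 0.024) and 0 fell, with 7 at an unadjusted p below 0.05.

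Of 15 paralogs of the members, 14 passed the filter of the drug table and 2 were past the fold rule in R_DT against R_DMSO, the enteric smooth muscle actin ACTG2 (1.60) and the myosin light chain MYL12A (1.06). ACTG2 was at 1.92 and 2.15 FPKM in R_DT and listed at 0 in R_DMSO, and it passed the filter through R_DT alone. The cytoplasmic actin ACTB was at 3697 and 3759 FPKM in R_DT libraries, against 3981 and 4248 FPKM in R_DMSO. In P_DT against P_DMSO, 3 paralogs rose and 3 fell, among them the calponin CNN3 (1.54 ± 0.11, limma adjusted p = 0.00041) and the light chain MYL6 (1.26 ± 0.26, 0.016) upward and the plastin PLS1 (-1.57 ± 0.20, 0.0033) and the tropomyosin TPM4 (-0.66 ± 0.13, 0.014) downward. In R_shLSD1, 3 of 12 rose and 3 fell, TPM3 (-0.78 ± 0.05, limma adjusted p = 0.0023) and ACTG1 (-0.40 ± 0.04, 0.0050) downward, MYL6 (0.28 ± 0.05, 0.016) and PLS1 (0.69 ± 0.12, 0.017) upward. In P_shLSD1 limma called 0 of 12, with 6 at an unadjusted p below 0.05. The plastin PLS3, a relative of LCP1, was at 156 and 168 FPKM in R_DMSO, against 24.1 and 19.5 FPKM in P_DMSO, a difference of 2.85.

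Of 21 other actin filament proteins, 1 was past the fold rule in R_DT against R_DMSO, the severing protein GSN (1.23). In P_DT against P_DMSO, 7 rose and 2 fell, among them the capping protein CAPZB (1.12 ± 0.11, limma adjusted p = 0.0011), PFN2 (1.01 ± 0.12, 0.0024) and DSTN (0.80 ± 0.12, 0.0055) upward and the actin-sequestering TMSB4X (-1.93 ± 0.19, 0.0012) downward. In R_shLSD1 against R_shCtrl, 2 rose and 7 fell, with profilin PFN1 (-0.65 ± 0.05, limma adjusted p = 0.0023), ARPC2 (-0.36 ± 0.05, 0.011) and MSN (-0.34 ± 0.05, 0.012) downward and TMSB4X (0.56 ± 0.06, 0.0051) upward. In P_shLSD1 against P_shCtrl, GSN rose (0.90 ± 0.15, limma adjusted p = 0.046) and 0 of 21 fell, with 3 at an unadjusted p below 0.05.

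**Figure D5:**
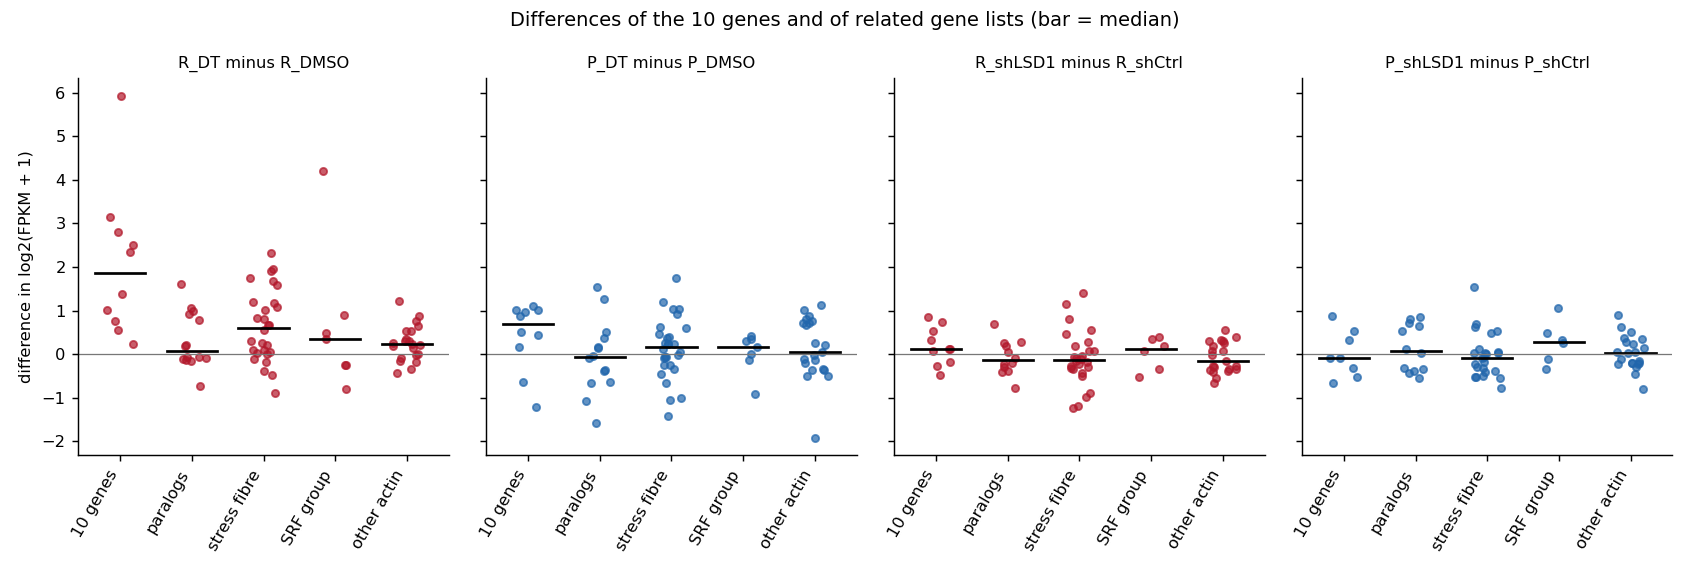
Differences in log2(FPKM + 1) of the 10 genes and of the 4 related lists (paralogs, stress fibre and contraction, SRF and cofactors, other actin filament proteins) in 4 comparisons, with each gene as a point and a bar at the list median. The 10 genes have a median of 1.86 in R_DT against R_DMSO, where the paralogs have 0.06. The 10 were chosen on this contrast, so nothing is read from that gap. The point at 4.20 in the SRF list is MYOCD.

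Across the 8 drug libraries, which share a table and fall into 4 groups, the pattern of TAGLN was most like that of SLC17A5, a lysosomal sialic acid transporter (Pearson r = 0.991), among 10105 genes of mean 5 FPKM or more. TGFB2, a TGF-beta ligand (r = 0.989), MYOCD (r = 0.989), the natriuretic peptide gene NPPB (r = 0.988) and TPM1 (r = 0.987) followed. TGFB2, MYOCD and NPPB reached that mean through R_DT alone, and TPM1 was chosen on the same contrast as TAGLN. Nothing is therefore read from these r. SLC17A5 differed little, at 9.25 and 9.35 FPKM in R_DT libraries, against 6.39 and 6.70 FPKM in R_DMSO. In P it was at 6.22 and 6.47 FPKM in P_DT libraries, against 5.89 and 6.14 FPKM in P_DMSO. NPPB was at 48.9 and 49.9 FPKM in R_DT libraries, against 0.427 and 0.225 FPKM in R_DMSO, and listed at 0 in P_DT and P_DMSO. TGFB2 was at 27.4 and 23.0 FPKM in R_DT libraries, against 2.05 and 1.98 FPKM in R_DMSO. Among the patterns most like that of LCP1 were those of the aldose reductase gene AKR1B1 (r = 0.999) and the receptor FGFR1 (r = 0.998). Those of PASD1 (r = 0.996) and CTPS1 (r = 0.996) were also among them. PASD1 was listed at 0 in P_DT and P_DMSO, so it reached the mean of 5 FPKM through R alone. LCP1 was chosen for the gap between the lines, so nothing is read from its r either. Among the members, r lay between 0.331 (TAGLN2 with ACTA2) and 0.989 (TPM1 with CNN1), and 14 of the 45 pairs had r of 0.9 or more. The r was 0.956 or more among TAGLN, TPM1, MYL9 and CNN1, and 0.899 or more among TAGLN2, TPM2, CNN2 and LCP1. These sets were not separate, since MYL9 had r of 0.925 with TPM2 and 0.922 with CNN2, and TPM1 had r of 0.93 with CALD1. The members were chosen on contrasts of these same 8 libraries, so the r among them are descriptions and no grouping is read from them.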

How the data were processed

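The authors deposited 4 tables of FPKM per gene, 1 for the drug groups, 1 for each line with LSD1 or control hairpins and 1 for R_shFosL1, and all 18 FPKM columns were assigned to samples. Per the submitters' processing notes, the authors used CASAVA 1.4, HISAT2 2.1.0 and Cufflinks 2.2.1 with hg38. The tables hold no counts, so FPKM was taken as deposited, a table's normalization holds within it alone, and no counting interval can be given. Genes that the deposited status calls failed (1 in the drug table, 4 in the R_shFosL1 table) and 4940 blank rows of the R hairpin table were left out, none of them a gene described here.

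Log2(FPKM + 1) was fitted with limma 3.58.1 (eBayes with trend and robust fitting) over the genes that reached 1 FPKM in 2 or more of its libraries, with Benjamini-Hochberg adjusted p below 0.05 as the threshold. The drug fit held 8 libraries (4 residual degrees of freedom) and each hairpin fit 4 (2 residual degrees of freedom). The fit was tested on simulated data. Contrasts that the choice of genes used are differences of group means, counted at 1 or more with the libraries apart. The members and lists were chosen with earlier results of these data known. Members were all named; of each related list, up to 4 called genes with the smallest adjusted p and up to 3 past the fold rule were named, with PLS3, SRF, ACTB, MYH11, LMOD1, SMTN, LAPTM5, CD53, LUM, KRT17 and the overlapping genes chosen after their values were seen. Some genes that this rule or the likeness ranking picks are not reported here. Likeness was Pearson's r on log2(FPKM + 1). Alternatives were a pseudocount of 0.1, no filter, quantile normalization, a replicate block, plain eBayes, the 2 groups alone, 1.5-fold, and leaving out each library. R 4.3.3 and Python 3.11.15 were used.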

Additional observations from a re-analysis of the deposited data

Results flagged for a closer look

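In the LSD1 hairpin comparison, 5 of the 8 members past the filter in both lines differed in opposite directions, with every library of each line on its side, as did 8.08% of 13212 genes. TPM1 differed by 0.74 in R and by -0.53 in P, and MYL9 by 0.32 in R and by -0.67 in P. ACTA2 differed by -0.48 in R and by 0.53 in P, and TAGLN2 by -0.17 in R and by 0.33 in P. CNN2 differed by 0.11 in R and by -0.090 in P. TPM1 in R passed limma's test, and the other 9 values did not. Under dabrafenib plus trametinib, 2 of the 10 members did so, against 16.5% of 17154 genes. ACTA2 differed by 3.16 in R and by -1.22 in P, and LCP1 by 1.00 in R and by -0.64 in P, where LCP1 was at or below 1.07 FPKM. None of these differences between the lines was tested: the hairpin tables were normalized separately, and the choice of genes used the drug contrast in R.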

How the results depend on the processing

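TPM1 and CALD1 kept their calls in P_DT and in R_shLSD1 under each alternative run, and no called member changed its direction. With each library left out in turn, the sign turned in members that did not pass. CNN2 in P_DT spanned -0.21 (without P_DMSO replicate 1) to 0.53. In P_shLSD1, TAGLN spanned -0.75 to 0.13 (without P_shLSD1 replicate 1), and TPM2 spanned -0.31 to 0.14 (without P_shLSD1 replicate 1; 0.13 without P_shCtrl replicate 1). TAGLN in R_shLSD1 spanned -0.050 (without R_shCtrl replicate 2) to 0.20. TPM2 also turned (0.32 without P_DMSO replicate 1) in the difference between the drug responses. In P_DT the count of 5 members became 2 with the 2 groups alone and 2 to 7 when 1 library was left out, and the 3861 genes called became 1447 and 1179 to 6055. TAGLN, TAGLN2 and ACTA2 lost their calls with the 2 groups alone (limma adjusted p = 0.065, 0.15 and 0.12), TAGLN2 with plain eBayes (0.060) and ACTA2 with every gene above 0 FPKM (0.078). LCP1 passed as lower in P_DT with a pseudocount of 0.1 (0.025), quantile normalization (0.022) and without P_DMSO replicate 1 (0.0086). The all-gene median in P_DT against P_DMSO was -0.00238 after quantile normalization, against 0.106 as deposited. In P_shLSD1 the 504 genes called became 0 with every gene above 0 FPKM (3969 at an unadjusted p below 0.05), 879 with quantile normalization, 319 with plain eBayes and 271 to 950 with a library left out, and the 0 members became 1 (CALD1, limma adjusted p = 0.044) with quantile normalization and 0 to 1 with a library left out. In R_shLSD1 the 3118 genes became 1609 with every gene above 0 FPKM, 1840 with plain eBayes and 966 to 1439 with a library left out, where 2 members stayed called. Where a library left out leaves a group with 1, that library is assumed to vary like the others. Over its alternatives, the fold rule counted 6 to 8 members for R_DT against R_DMSO and for R_DMSO against P_DMSO, 8 to 10 for R_DT against P_DT and 6 for the difference between the drug responses. The causes were not tested.

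Same-numbered libraries deviated together with correlations of 0.097 (P_DT with P_DMSO), -0.037 (R_DT with R_DMSO), 0.148 (R_DT with P_DT) and -0.212 (R_DMSO with P_DMSO) in the drug table and 0.030 in the R hairpin table. No label says what a number marks, so the numbers were not taken to pair the libraries. With the replicate block, P_DT had 3 members called (TAGLN2 and ACTA2 lost), P_shLSD1 945 genes and R_shLSD1 4 members (TAGLN2 and TPM2 as lower). In the P hairpin table the correlation was -0.32, and a crossed pairing, chosen after seeing the data, gave 3446 genes and 3 members called.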
